A study of Rattus norvegicus with 18 samples.

Results

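The transcripts described here encode the metzincin proteinases of the matrix and cell surface and their tissue inhibitors in rat kidney cortex. Every row of the deposited gene table whose symbol starts with Mmp, Timp, Adam, Adamts or Adamtsl followed by a digit was taken, which gave 53 of 18420 genes. They comprise 16 matrix metalloproteinases (Mmp), 4 tissue inhibitors of metalloproteinases (Timp), 13 membrane-anchored disintegrin metalloproteinases (Adam), 16 secreted proteinases with thrombospondin motifs (Adamts) and 4 Adamts-like glycoproteins (Adamtsl). RNA-seq had been run on 18 libraries of Zucker diabetic fatty (ZDF) rats, a strain in which homozygous fa animals lack a working leptin receptor and become obese and diabetic. The RYGB group held 6 libraries of fa/fa rats labelled diabetic that had undergone Roux-en-Y gastric bypass, a stomach operation that reroutes food past the upper small intestine. The disease group held 6 libraries of fa/fa rats labelled diabetic without that operation, and the healthy control group held 6 libraries of lean fa/+ rats labelled non-diabetic. The labels give no age, sex or sham operation, so operated and unoperated fa/fa rats may differ in more than the bypass itself. The healthy controls carry 1 fa allele, and genotype and diabetes cannot be told apart between them and the disease group.

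Matrix metalloproteinases are zinc-dependent enzymes that are mostly secreted as inactive proforms and cut collagens, elastin, proteoglycans and many signalling proteins once their propeptide is removed. Tissue inhibitors bind the active site, Adam proteins shed the outer domains of membrane proteins, and Adamts proteins cut proteoglycans and process procollagens, whereas Adamts-like proteins have no catalytic domain and bind matrix microfibrils. In the kidney these enzymes are made by glomerular, tubular, interstitial and infiltrating cells, and turnover of the glomerular basement membrane and the interstitium is the setting in which they are best known. Activity of these proteins is set largely after transcription, so the values below describe RNA only.

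Reads assigned to genes numbered 12470525 to 42713246 in RYGB libraries, 8157977 to 37142922 in disease libraries and 8116638 to 34169198 in healthy control libraries. Expression values are the authors' normalised reads, meaning read counts divided by a size factor for each library, and they allow a gene to be compared between groups but not with another gene. Markers of proximal tubule and podocytes, the defining cells of cortex, were present in every group, with no marker at 0 reads throughout a group. Healthy control replicate 4 and RYGB replicate 2 stood apart from the other libraries of their groups for several of the proteinases, and the results that turn on them are given without them below. Because no label states that the libraries come from separate animals, each p-value refers to library-to-library spread, which may be technical.

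A member was tested where at least 6 of the 18 libraries had at least 10 normalised reads, which left 41 of the 53, and it was called at an adjusted p below 0.05 (limma on log2(value + 1), Benjamini-Hochberg over the 13988 genes tested). Between RYGB and disease 6 members were called, and all of these were lower in RYGB: Mmp2, Mmp12, Timp2, Adamts1, Adamts8 and Adamts12. In whole cortex fewer cells of a type and less RNA per cell cannot be told apart. Of all genes tested, 3.95% were called in that comparison, 1.84% higher and 2.1% lower. No member was called higher in RYGB than in disease by limma, edgeR or DESeq2, and no member had an unadjusted p below 0.05 in that direction, while 15 had one in the lower direction. Over all genes 20.7% had an unadjusted p below 0.05 in either direction, with 1334 of 13988 lower and 1567 higher. The median log2 fold change of the 41 members was −0.34, against −0.00087 for all genes tested, and 28 of the 41 lay below 0.

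Between RYGB and healthy control 3 members were called, all lower in RYGB, namely Mmp2, Mmp9 and Adamts1, and 4.44% of all genes were called, 2.46% higher and 1.98% lower. An unadjusted p below 0.05 was found for 13 members, 11 of them lower, and for 26.2% of all genes (1656 lower and 2010 higher of 13988). The median log2 fold change of the members there was −0.18, against −0.013 for all genes. Between disease and healthy control 2 members were called, Adamts8 higher and Mmp9 lower in disease, and 1.61% of all genes were called, 0.579% higher and 1.03% lower. An unadjusted p below 0.05 was found for 8 members, 5 higher and 3 lower, and for 11.1% of all genes (726 higher and 824 lower of 13988). The median of the members was 0.12 in that comparison, against 0.0016 for all genes. The 3 comparisons share libraries in pairs, so values of a member in one of them are not independent of its values in another.

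**Figure D1:**
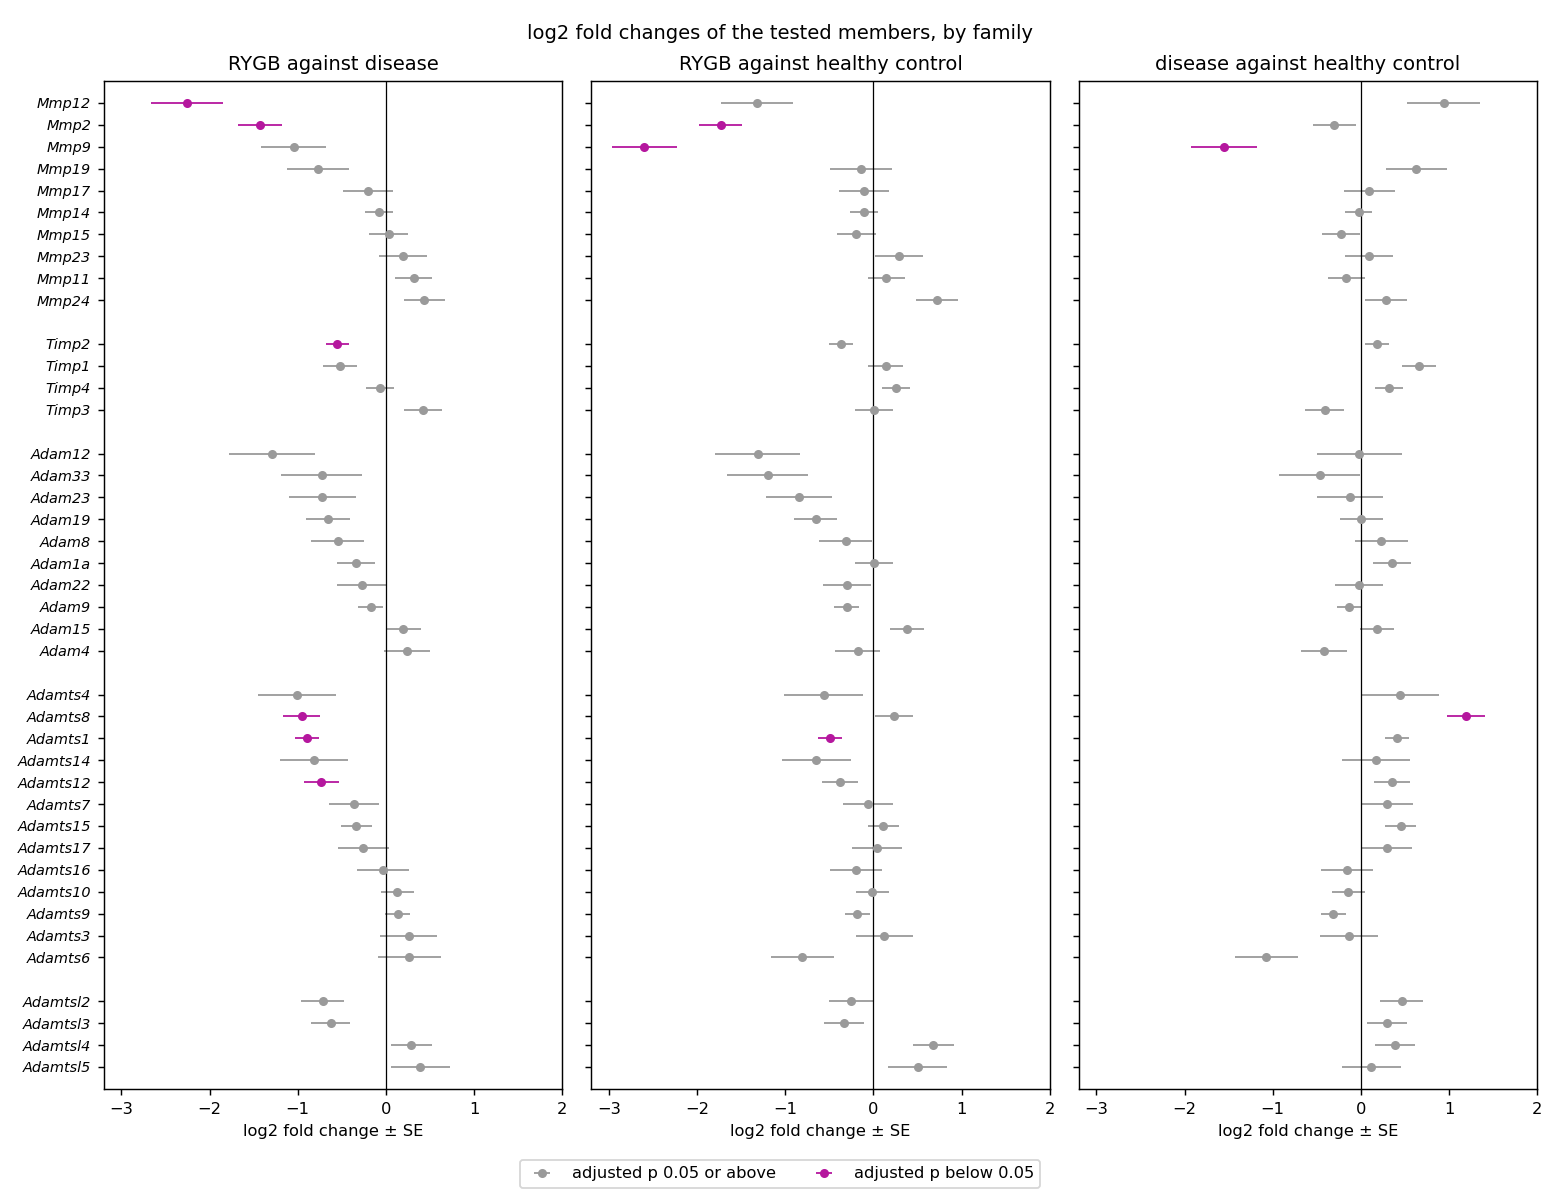
log2 fold change with its standard error (limma, log2(value + 1)) of each of the 41 tested members, grouped by family, in the comparisons RYGB against disease, RYGB against healthy control and disease against healthy control. Purple points had an adjusted p below 0.05, and in the left panel all 6 of them lie below 0.

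Promoter sequence was at hand from RefSeq (assembly GRCr8) for 37 of the 53 members and for 4 of the 7 that were called in any comparison. These 4 are shown because sequence was at hand for them, and all 4 were called lower in RYGB than in disease. No promoter sequence was at hand for Mmp2 and Adamts8, also called lower there, or for Mmp9. Each is the 250 bases before the transcription start, written 5′ to 3′ on the gene's own strand. Capitals mark matches, on either strand, to the TATA box TATAAA, the AP-1 element TGANTCA, the GC box GGGCGG and the ETS element AGGAAG. Adamts1 lies on the minus strand at chr11:38427385-38427634, Adamts12 on the plus strand at chr2:61759737-61759986, Mmp12 on the plus strand at chr8:12866402-12866651 and Timp2 on the minus strand at chr10:104089215-104089464.
Adamts1: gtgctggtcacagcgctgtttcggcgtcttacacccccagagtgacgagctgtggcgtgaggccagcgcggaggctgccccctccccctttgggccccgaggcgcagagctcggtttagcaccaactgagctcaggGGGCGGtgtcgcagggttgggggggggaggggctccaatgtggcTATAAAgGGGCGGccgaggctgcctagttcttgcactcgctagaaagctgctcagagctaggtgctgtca
Adamts12: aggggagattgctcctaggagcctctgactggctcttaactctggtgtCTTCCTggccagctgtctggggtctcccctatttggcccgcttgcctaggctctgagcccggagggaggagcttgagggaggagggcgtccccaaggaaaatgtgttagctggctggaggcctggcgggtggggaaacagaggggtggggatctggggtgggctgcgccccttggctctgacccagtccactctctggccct
Mmp12: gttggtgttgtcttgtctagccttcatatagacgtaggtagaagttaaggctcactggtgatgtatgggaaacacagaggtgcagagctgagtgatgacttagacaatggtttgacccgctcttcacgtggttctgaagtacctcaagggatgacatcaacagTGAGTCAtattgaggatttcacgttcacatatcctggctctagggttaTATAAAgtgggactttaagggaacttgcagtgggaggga
Timp2: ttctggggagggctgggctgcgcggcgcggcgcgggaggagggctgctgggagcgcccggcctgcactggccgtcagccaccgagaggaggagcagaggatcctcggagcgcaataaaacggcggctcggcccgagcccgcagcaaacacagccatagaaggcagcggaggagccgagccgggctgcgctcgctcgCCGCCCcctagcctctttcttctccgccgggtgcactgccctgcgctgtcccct
No element was found in all 4 sequences. Mmp12 had a TATA box starting 39 bases and an AP-1 element starting 87 bases before its start. Adamts1 had a TATA box starting 70 bases before its start and GC boxes at 114 and 63 bases, which did not overlap it. Timp2 had 1 GC box at 54 bases, and Adamts12 had 1 ETS element at 202 bases, and both of these matched on the opposite strand. Of 33469 rat promoters of this length, 12.9% held TATAAA, 6.34% held TGANTCA, 30.5% held GGGCGG and 29.5% held AGGAAG. A match describes letters only, and binding was not measured.

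The gelatinases Mmp2 and Mmp9 cut denatured collagen and type IV collagen of basement membranes. Mmp2, also called gelatinase A, measured 71.7, 137 and 152 normalised reads (lowest, median and highest library) in RYGB, 217, 329 and 466 in disease, and 177, 462 and 574 in healthy controls. Every RYGB library lay below every library of the other groups, whose ranges overlapped each other. The mean was 125 ± 29.2 in RYGB, 338 ± 80.0 in disease and 431 ± 135 in healthy controls (SD, n = 6 each). Mmp2 was thus 2.70-fold lower in RYGB than in disease, with a log2 fold change of −1.43 ± 0.25 (SE, adjusted p = 0.00262, limma). It was 3.45-fold lower in RYGB than in healthy controls (log2 −1.73 ± 0.25, adjusted p = 0.000716, limma). Disease and healthy controls were not called different (log2 −0.30 ± 0.25, adjusted p = 0.694, limma). Healthy control replicate 4 was the lowest of its group at 177, and the remaining healthy controls lay between 430.0 and 574.

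Mmp9, or gelatinase B, which neutrophils store in granules and other cells make on stimulation, gave 32.3, 40.5 and 143 normalised reads in RYGB, 66.2, 107 and 229.7 in disease, and 137, 319.7 and 636 in healthy controls (lowest, median and highest). The groups were ordered RYGB, disease, healthy control by median, and each overlapped the next. RYGB replicate 2, at 143, exceeded the lowest healthy control, and the remaining RYGB libraries did not exceed 63.4. Mmp9 fell 5.85-fold in RYGB relative to healthy controls (log2 −2.60 ± 0.37, adjusted p = 0.000716, limma) and 2.98-fold in disease relative to healthy controls (log2 −1.55 ± 0.37, adjusted p = 0.0364, limma). The call between disease and healthy control was lost without any single one of healthy control replicates 1, 2, 3, 5 and 6 or disease replicates 1, 2, 3, 4 and 6, with adjusted p between 0.0581 and 0.0888 (limma). Between RYGB and disease the log2 fold change was −1.05 ± 0.37 with an adjusted p of 0.117, which became 0.0357 without RYGB replicate 2 (limma).

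Mmp12, the macrophage elastase, had the largest fold change of the tested members between RYGB and disease, at low counts. It measured 6.09, 7.26 and 16.5 normalised reads in RYGB, 25.5, 43.5 and 83.2 in disease, and 9.39, 25.5 and 63.5 in healthy controls (lowest, median and highest). All RYGB libraries lay below all disease libraries, while healthy controls overlapped both. The mean of 9.48 ± 4.33 in RYGB was 5.21-fold lower than the mean of 49.4 ± 20.7 in disease (SD, n = 6 each; log2 −2.26 ± 0.41, adjusted p = 0.00368, limma). Against healthy controls, which averaged 29.3 ± 20.7, the log2 fold change of RYGB was −1.32 ± 0.41 with an adjusted p of 0.0649 in limma. The count tests called that difference (adjusted p = 0.025 in edgeR and 0.0029 in DESeq2), and limma called it without healthy control replicate 4 or replicate 6 (adjusted p between 0.0191 and 0.0485). Disease against healthy control was not called (log2 0.94 ± 0.41, adjusted p = 0.385, limma).

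The other tested Mmp members gave no call in limma. DESeq2 called Mmp24, a membrane-type enzyme named here for that call, higher in RYGB, at 31.1 to 63.8 normalised reads, than in healthy controls at 17.6 to 37.2 (log2 0.72 ± 0.24, adjusted p = 0.0767, limma). Mmp14, a membrane-type enzyme that activates the Mmp2 proform, averaged 624 ± 98.4 normalised reads in RYGB, 669 ± 165 in disease and 672 ± 113 in healthy controls (SD, n = 6 each), so its group means lay within the spread of the libraries. Mmp15, another membrane-type enzyme, averaged 606 ± 214 in RYGB, 592 ± 197 in disease and 678 ± 152 in healthy controls. Mmp11, or stromelysin-3, which furin activates inside the cell, averaged 455 ± 72.2 in RYGB, 379.6 ± 126 in disease and 422 ± 116 in healthy controls. The ratio of Mmp2 to Mmp14 therefore followed Mmp2, lying at 0.111 to 0.280 in RYGB, 0.269 to 0.700 in disease and 0.226 to 0.898 in healthy controls. The highest RYGB ratio lay just above the lowest disease ratio, and the RYGB median of 0.231 lay just above the lowest healthy control.

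**Figure D2:**
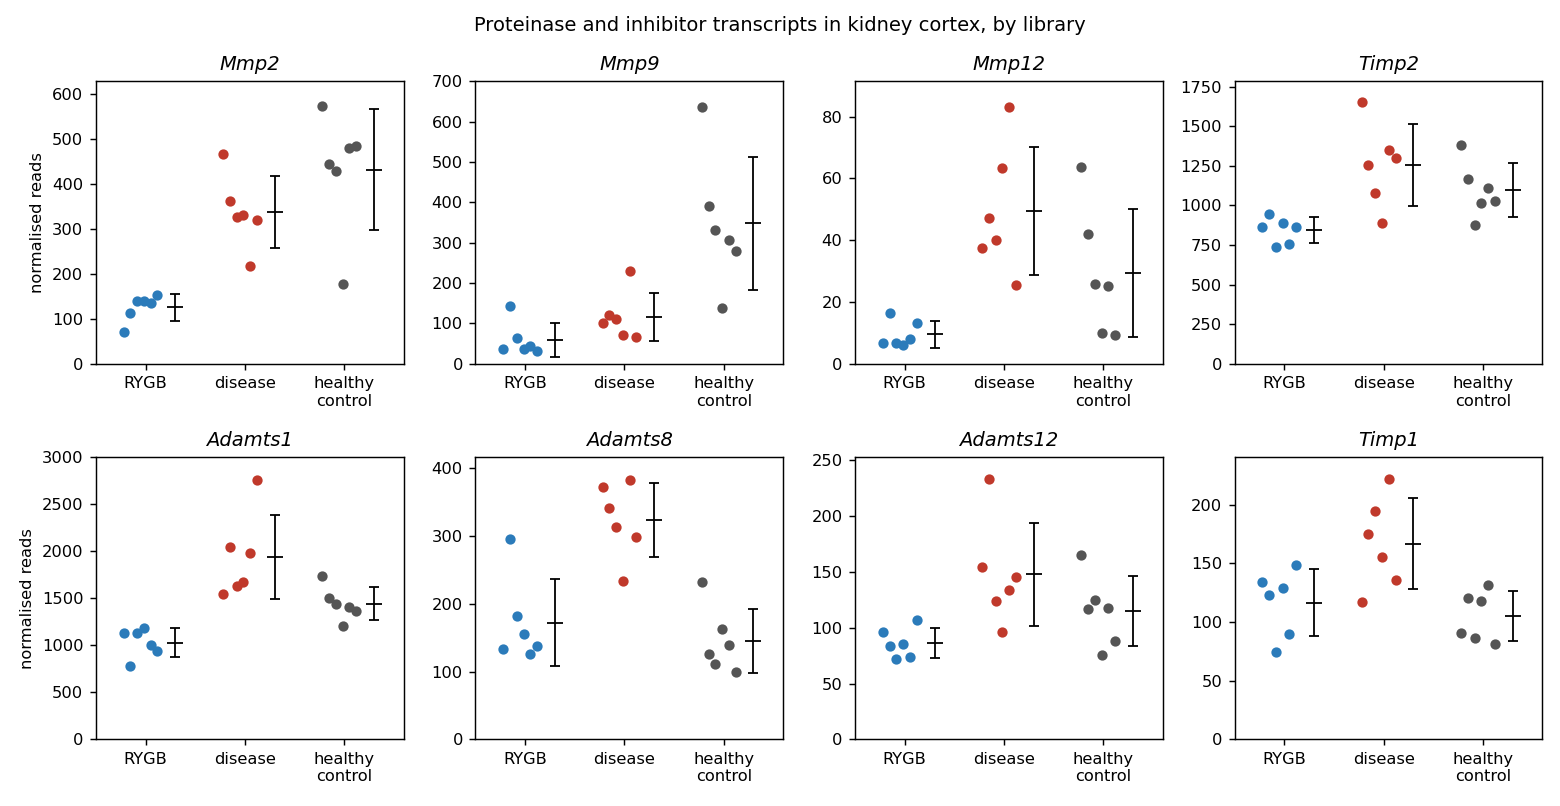
Normalised reads (y axis, from 0) of the called members and Timp1 in each RYGB, disease and healthy control library. Points are libraries in replicate order, and the bars give mean ± SD of 6 libraries. Mmp2 and Adamts1 in RYGB lie below every library of the other groups, and Adamts8 in disease lies above every healthy control.

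Among the inhibitors, Timp2, which blocks most Mmp proteins and also helps Mmp14 activate the Mmp2 proform, was the member called. It gave 735, 865 and 947 normalised reads in RYGB, 887, 1279.5 and 1654 in disease, and 877, 1068 and 1381 in healthy controls (lowest, median and highest). Only the upper end of the RYGB range reached the other groups. Timp2 was 1.49-fold lower in RYGB than in disease (log2 −0.55 ± 0.13, adjusted p = 0.0237, limma). That call was lost without disease replicate 1, disease replicate 2 or RYGB replicate 5, with adjusted p between 0.0539 and 0.062 (limma). Against healthy controls the log2 fold change of RYGB was −0.37 ± 0.13 (adjusted p = 0.0984, limma), and it was called with the compared groups fitted alone (adjusted p = 0.0465). The ratio of Mmp2 to Timp2 averaged 0.150 ± 0.0413 in RYGB, 0.276 ± 0.0701 in disease and 0.394 ± 0.115 in healthy controls (SD, n = 6 each), with overlapping ranges.

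Timp1, an inducible inhibitor that binds the Mmp9 proform, averaged 117 ± 28.4 normalised reads in RYGB, 167 ± 38.7 in disease and 105 ± 21.3 in healthy controls (SD, n = 6 each). Disease libraries reached the highest values, up to 222, but overlapped both other groups. The difference of disease from healthy control was not called in limma (log2 0.66 ± 0.19, adjusted p = 0.117), was called in DESeq2 (adjusted p = 0.0204) and was called in limma after quantile normalization (adjusted p = 0.0396). RYGB against disease was not called (log2 −0.52 ± 0.19, adjusted p = 0.134, limma). Timp3, which is held in the matrix and inhibits Adam and Adamts enzymes as well as Mmp proteins, averaged 11491 ± 3959 in RYGB, 8287 ± 1735 in disease and 11192 ± 2904 in healthy controls. It was not called in any comparison, and its log2 fold change between RYGB and disease was 0.42 ± 0.22 (adjusted p = 0.279, limma). Timp4 averaged 300.1 ± 38.9 in RYGB, 319 ± 73.2 in disease and 254 ± 52.6 in healthy controls and was not called either.

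Adamts1 and Adamts8 both cut the proteoglycan aggrecan, and Adamts1 also cuts versican and restrains vessel growth. Adamts1 measured 781, 1067 and 1182 normalised reads in RYGB, 1542, 1828 and 2759.8 in disease, and 1202, 1421 and 1732 in healthy controls (lowest, median and highest). All RYGB libraries lay below all libraries of the other groups, and disease overlapped healthy controls. Adamts1 was 1.89-fold lower in RYGB than in disease (log2 −0.90 ± 0.14, adjusted p = 0.000913, limma). It was 1.40-fold lower in RYGB than in healthy controls (log2 −0.49 ± 0.14, adjusted p = 0.0432, limma). The second of these calls was lost without any single one of healthy control replicates 1, 2, 3, 5 and 6, disease replicate 2 or RYGB replicates 1, 2, 4, 5 and 6, with adjusted p between 0.051 and 0.116 (limma). It was also lost with no filter on low values (adjusted p = 0.0507) and with a replicate block (adjusted p = 0.0785, limma).

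Adamts8 was the member that was higher in disease than in healthy controls. It gave 126, 147 and 296 normalised reads in RYGB, 234, 327 and 382 in disease, and 99.8, 132 and 231 in healthy controls (lowest, median and highest). Each disease library exceeded each healthy control library, a separation in that direction seen in 0.458% of all genes tested. RYGB overlapped both, because RYGB replicate 2, at 296, lay within the disease range, and the remaining RYGB libraries did not exceed 183. Disease averaged 323 ± 54.4 against 145 ± 47.5 in healthy controls (SD, n = 6 each), a 2.23-fold difference (log2 1.19 ± 0.21, adjusted p = 0.0044, limma). RYGB averaged 172 ± 64.0, 1.88-fold lower than disease (log2 −0.96 ± 0.21, adjusted p = 0.0163, limma). RYGB and healthy controls were not called different (log2 0.23 ± 0.21, adjusted p = 0.484, limma).

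Adamts12, which cuts the cartilage oligomeric matrix protein, measured 72.1, 84.7 and 107 normalised reads in RYGB, 96.3, 140.0 and 233 in disease, and 76.0, 117 and 165 in healthy controls (lowest, median and highest). RYGB and disease overlapped in the narrow stretch between 96.3 and 107. It was 1.72-fold lower in RYGB than in disease (log2 −0.73 ± 0.20, adjusted p = 0.0444, limma). The call was lost with no filter (adjusted p = 0.0577), with the compared groups fitted alone (adjusted p = 0.056), and without any single one of healthy control replicates 2, 3, 5 and 6, disease replicates 1, 2 and 6 or RYGB replicates 1 to 6 (adjusted p between 0.0513 and 0.107, limma). Adamts9, which cuts versican, averaged 496 ± 43.2 in RYGB, 464 ± 120.0 in disease and 562 ± 48.3 in healthy controls and was not called. Adamts10, which binds fibrillin, averaged 277 ± 50.4 in RYGB, 262 ± 89.4 in disease and 276 ± 19.2 in healthy controls and was not called.

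Of the 41 tested members, 5 had all RYGB libraries below all disease libraries, against 1.47% of all genes: Mmp2, Mmp12, Adamts1, Adamts14 and Adamtsl2. Against healthy controls this held for Mmp2 and Adamts1, with 1.4% of all genes. Adamts14, which removes the amino-terminal propeptide of procollagen, is named here after its values were seen. It averaged 18.2 ± 2.82 normalised reads in RYGB, 33.6 ± 10.7 in disease and 34.6 ± 15.7 in healthy controls (SD, n = 6 each), and it was not called between RYGB and disease (log2 −0.82 ± 0.39, adjusted p = 0.239, limma), although DESeq2 called it lower in RYGB than in both other groups. Its healthy controls ran from 4.91, the value of replicate 4, to 47.3.

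The Adamts-like glycoproteins gave no call among 4 tested members in any comparison. Adamtsl2, which binds fibrillin and a latent TGF-beta binding protein, averaged 846 ± 232 in RYGB, 1351 ± 251 in disease and 1034 ± 379 in healthy controls (SD, n = 6 each). Its RYGB libraries, up to 1053, lay below its disease libraries, from 1117 upward, and the log2 fold change was −0.72 ± 0.25 (adjusted p = 0.107, limma). Without healthy control replicate 4 that difference was called (adjusted p = 0.0432, limma), although this library is in neither of the compared groups and enters only through the shared spread. Adamtsl3 averaged 165 ± 47.3 in RYGB, 254 ± 70.1 in disease and 209.6 ± 65.4 in healthy controls and was not called. Adamtsl4, another fibrillin-binding glycoprotein, averaged 611 ± 164 in RYGB, 499.9 ± 145 in disease and 378 ± 92.8 in healthy controls. Its difference between RYGB and healthy control (log2 0.68 ± 0.23, adjusted p = 0.0829, limma) was called in DESeq2 (adjusted p = 0.0272) and in limma without RYGB replicate 3 (adjusted p = 0.0248). At an unadjusted p below 0.05 this family had 2 lower members between RYGB and disease and 1 higher between RYGB and healthy control, and edgeR called none. Of all 13988 genes tested, 1334 and 2010 reached that level in the same directions.

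The membrane-anchored Adam family also gave no call among 10 tested members. At an unadjusted p below 0.05 it had 2 lower members between RYGB and disease, 5 lower between RYGB and healthy control, and 0 between disease and healthy control. Of all 13988 genes tested, 1334 were lower at that level in RYGB than in disease and 1656 than in healthy controls. DESeq2 called Adam12 lower in RYGB than in both other groups and Adam19 lower in RYGB than in healthy controls, and edgeR called none. Both are named here because of those calls. Adam12, a shedding enzyme expressed in mesenchymal cells, averaged 8.86 ± 5.10 normalised reads in RYGB, 26.9 ± 20.8 in disease and 23.6 ± 11.9 in healthy controls (SD, n = 6 each). Adam19 averaged 69.5 ± 9.31 in RYGB, 117 ± 49.8 in disease and 114 ± 37.2 in healthy controls. The 3 members with the highest values showed smaller differences: Adam9, a widely expressed sheddase, averaged 1752 ± 254 in RYGB, 2009 ± 552 in disease and 2156 ± 267 in healthy controls. Adam15 averaged 899 ± 235 in RYGB, 788 ± 233 in disease and 679.7 ± 126 in healthy controls. Adam22, which has no catalytic activity and is best known as a receptor in the brain, averaged 137 ± 44.5 in RYGB, 176 ± 90.9 in disease and 164 ± 27.3 in healthy controls. The tested members not described above (Mmp17, Mmp19, Mmp23, Adam1a, Adam4, Adam8, Adam23, Adam33, Adamts3, Adamts4, Adamts6, Adamts7, Adamts15, Adamts16, Adamts17 and Adamtsl5) gave no call in limma, edgeR or DESeq2. Among them Adam33 had the lowest adjusted p, 0.114 for RYGB against healthy control (log2 −1.20, limma), and the lowest between RYGB and disease was that of Adamts4 at 0.20 (log2 −1.01, limma). The principal sheddases Adam10 and Adam17, and the aggrecanase Adamts5, were not analysed here.

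**Figure D3:**
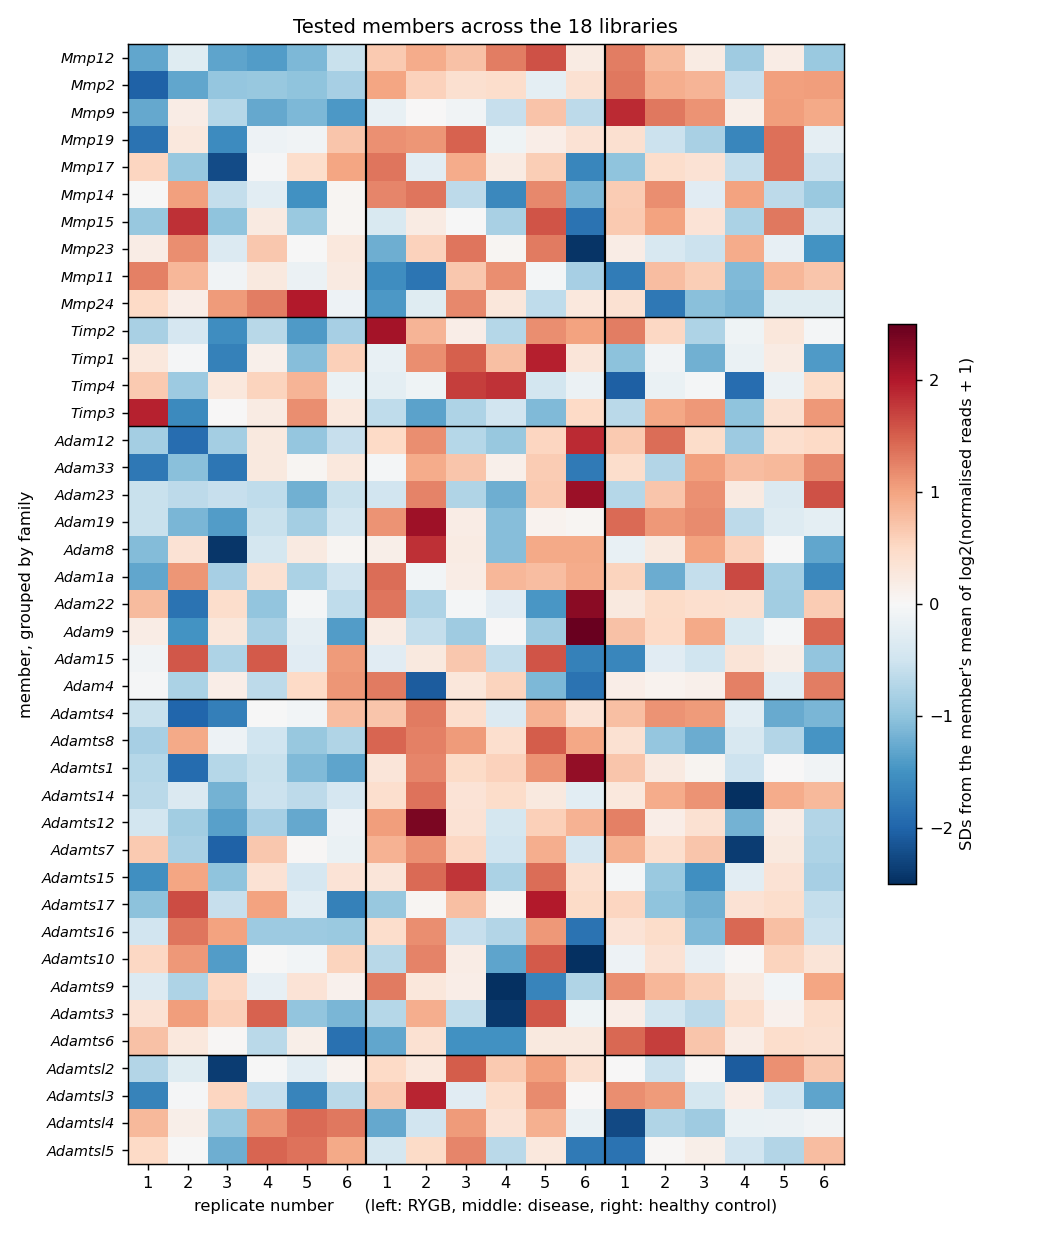
Each cell gives a tested member in a library (RYGB left, disease middle, healthy control right, replicates 1 to 6 in each) as SDs from that member's mean over the 18 libraries, on log2(normalised reads + 1). Blue is below and red above the mean. The RYGB cells of Mmp2, Mmp12, Timp2, Adam19, Adam23, Adamts1, Adamts12 and Adamts14 are blue in all 6 libraries.

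Below the filter were 12 members: Mmp3, Mmp7, Mmp8, Mmp10, Mmp16, Mmp20, Adam2, Adam11, Adam32, Adamts13, Adamts18 and Adamts19. Mmp7, or matrilysin, which injured tubules are known to make, had 0 reads in the RYGB libraries, which allows up to 3 reads in that group's 134285754 reads in genes. It had 6 reads over 4 disease libraries and 1 read in healthy controls. The stromelysin Mmp3 had 9 reads in RYGB, 3 in disease and 4 in healthy controls, and Mmp10 had 2, 2 and 15 in the same order of groups. Adamts13, the von Willebrand factor-cleaving proteinase that the liver makes, had 2 reads in RYGB, 0 in disease (up to 3 reads are allowed) and 1 in healthy controls. These limits cover counting error only. Mmp8, the neutrophil collagenase, had 23 reads in RYGB, 23 in disease and 2 in healthy controls, and Mmp20, best known from tooth enamel, had 15, 34 and 8 in the same order. Adam11 had 71 reads in RYGB, 13 in disease and 18 in healthy controls. The other 5 of these members had between 2 and 55 reads in each group. With no filter on low values limma called none of the 12 in any comparison.

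Transcripts of the cells known to make these enzymes moved with some of them. The summed fibroblast and pericyte markers (7 of 7 in the table, none at 0 reads throughout a group) came to 4076 to 5244 normalised reads in RYGB, 5888 to 7976 in disease and 5193 to 7707 in healthy controls. Of these 7 markers, Pdgfra, Col1a1 and Dcn were called lower in RYGB than in disease, while Lum (log2 −0.74), S100a4 (−0.62), Thy1 (−0.45) and Pdgfrb (0.12) were not called. The Pdgfra call was lost without any single one of disease replicates 1, 2 and 6 or RYGB replicates 1, 2, 5 and 6 (adjusted p between 0.0512 and 0.0751, limma). Set against that sum, Mmp2 was 1.42 to 3.40% in RYGB, 3.50 to 7.02% in disease and 3.40 to 7.66% in healthy controls. On this measure the highest RYGB library (3.405%) lay just below the lowest disease library (3.501%). RYGB and healthy controls, separate in Mmp2 reads alone, overlapped here, as the lowest healthy control (3.401%) lay within the RYGB range. Timp2 was 16.98 to 19.2% of the same sum in RYGB, 15.1 to 24.9% in disease and 12.4 to 19.5% in healthy controls, with RYGB inside the disease range. Adamts12 was 1.63 to 2.31% in RYGB, 1.64 to 2.92% in disease and 1.39 to 2.15% in healthy controls, with medians of 1.74% in RYGB, 2.21% in disease and 1.66% in healthy controls. RYGB and disease overlapped, and the highest disease libraries lay above the RYGB range. The part of the markers in the Mmp2, Timp2 and Adamts12 differences was not tested. The summed proximal tubule markers (6 of 7 in the table, none at 0 reads throughout a group) stood the other way, with overlap, at 182052 to 286453 in RYGB, 101482 to 212554 in disease and 100363 to 218834 in healthy controls. Slc34a1, Miox, Aqp1 and Cubn had higher means in RYGB than in disease. Of the list only Miox was called there (log2 0.95, adjusted p = 0.028, limma), and without any single one of 6 libraries that call was lost. Slc5a12 averaged 7584 in RYGB and 10103 in disease, and Slc5a2 averaged 12287 and 12910. The part of these markers in the members called lower was not tested. The summed mesangial markers (4 of 4, none at 0 reads throughout a group) overlapped at 2490.4 to 3772 in RYGB, 2525 to 3835 in disease and 2429 to 3709 in healthy controls. Of these, Des was called higher in disease than in healthy controls and lower in RYGB than in disease, as Adamts8 was. The other mesangial markers were not called in either comparison, with log2 fold changes for disease against healthy control of −0.45 for Itga8, −0.02 for Pdgfrb and 0.23 for Gata3, and for RYGB against disease of −0.24, 0.12 and 0.06. The part of these markers in the Adamts8 values was not tested.

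The summed macrophage markers (5 of 6 in the table, none at 0 reads throughout a group) were 1055 to 1347 in RYGB, 1296 to 1831 in disease and 908 to 1535 in healthy controls. Of these 5, only the mannose receptor Mrc1 was called lower in RYGB than in disease (log2 −1.75 ± 0.22, adjusted p = 0.000334, limma). Uncalled in that comparison were Csf1r (log2 −0.42), Cd163 (0.01), Cd68 (0.06) and Adgre1 (0.33), and the median over the list was 0.013. Mmp12 was 0.454 to 1.56% of that sum in RYGB, 1.66 to 5.11% in disease and 0.719 to 4.67% in healthy controls. RYGB and disease did not overlap on this measure, and healthy controls overlapped both. The part of these cells in the Mmp12 values was not tested. The neutrophil list (4 of 6 in the table, none at 0 reads throughout a group) summed to 139 to 294 in RYGB, 119 to 522 in disease and 91.6 to 164 in healthy controls. Its largest contributor was Ly6g6e, which is not an established neutrophil gene, at 122 ± 42.7 in RYGB, 123 ± 52.8 in disease and 93.5 ± 30.4 in healthy controls (SD, n = 6 each). S100a8, which encodes a calprotectin subunit abundant in neutrophils, averaged 24.5 ± 20.6 in RYGB, 44.4 ± 49.0 in disease and 3.31 ± 5.02 in healthy controls, and S100a9 averaged 38.6 ± 28.2 in RYGB, 86.4 ± 65.0 in disease and 12.6 ± 10.9 in healthy controls. Both were called higher in disease than in healthy controls (adjusted p = 0.00446 and 0.00533, limma), the direction opposite to that of Mmp9, while the receptor Csf3r was not called (adjusted p = 0.619, limma). Between RYGB and healthy control S100a8 alone of the list was called, higher in RYGB (log2 2.83, adjusted p = 0.0215, limma). That S100a8 call was lost in 5 of 25 alternatives. The part of these cells in the Mmp9 values was not tested.

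**Figure D4:**
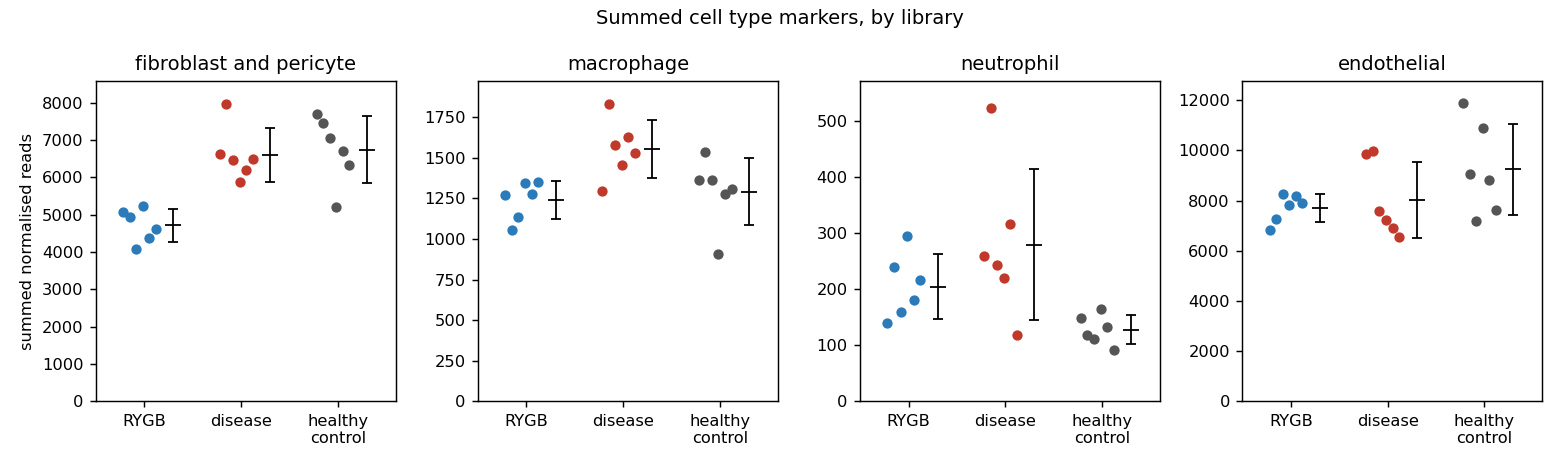
Summed normalised reads (y axis, from 0) of the fibroblast and pericyte, macrophage, neutrophil and endothelial marker lists in each library, with mean ± SD of 6 libraries beside the points. The fibroblast and pericyte sum is at most 5244 in RYGB and at least 5888 in disease, and the endothelial sums of the 3 groups overlap. Ly6g6e has the highest mean of the neutrophil list in each group.

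Regulators outside the families include activators, clearance partners and other brush border metalloproteinases. Of 22 tested regulators, Plau, the urokinase that makes plasmin and so starts proform activation, and Mep1b, a meprin metalloproteinase of the tubular brush border, were called lower in disease than in healthy controls. Over all genes tested 1.03% were called lower there. Plau averaged 5566 ± 923 normalised reads in disease and 10025 ± 2581 in healthy controls (log2 −0.83 ± 0.18, adjusted p = 0.0163, limma). Mep1b averaged 367 ± 321 in disease and 1439 ± 428 in healthy controls (log2 −2.37 ± 0.48, adjusted p = 0.0119, limma). In RYGB the meprins were called higher than in disease, Mep1b at 1216 ± 840.0 (log2 1.91 ± 0.48, adjusted p = 0.0308, limma) and Mep1a at 13363 ± 1718 against 8304 ± 2648 (log2 0.74 ± 0.19, adjusted p = 0.0339, limma). The Mep1b call between RYGB and disease was lost with the compared groups alone (adjusted p = 0.0734), with a replicate block (adjusted p = 0.0552) and without disease replicate 1 or 4 or RYGB replicate 1, 2 or 4 (adjusted p up to 0.0838, limma). The Mep1a call was lost without disease replicate 1 or 2 or RYGB replicate 1, 2, 4 or 5 (adjusted p up to 0.0897), and the Plau call without healthy control replicate 2 or 3 (adjusted p up to 0.0527, limma). Thbs2, a matricellular protein that aids the clearance of Mmp2 in mouse cells, averaged 94.8 ± 25.6 in RYGB, 184 ± 45.1 in disease and 205 ± 36.3 in healthy controls. It was called lower in RYGB than in disease (log2 −0.95 ± 0.19, adjusted p = 0.00686, limma) and than in healthy controls (log2 −1.12 ± 0.19, adjusted p = 0.00243, limma). The median log2 fold change of the 22 regulators between RYGB and disease was 0.20, against −0.00087 for all genes. Over all genes tested 1.84% were called higher and 2.1% lower in RYGB than in disease, and 1.98% lower than in healthy controls.

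Among 22 tested matrix proteins that these enzymes cut or bind, 7 were called lower in RYGB than in disease (Col1a1, Col3a1, Col4a1, Col4a2, Fn1, Dcn and Sparc) and none higher, with a list median log2 fold change of −0.52. Over all genes tested 2.1% were called lower there and the median was −0.00087. The count tests called 8 of the list in edgeR and 10 in DESeq2. Of the 13988 genes given to them, edgeR called 629 there and DESeq2 1098. Col1a1, the main chain of fibrillar type I collagen, averaged 356 ± 83.9 in RYGB and 1035 ± 341 in disease (log2 −1.51 ± 0.34, adjusted p = 0.0163, limma). Col3a1, of type III collagen, averaged 1329 ± 419 in RYGB and 3352 ± 527 in disease (log2 −1.38 ± 0.29, adjusted p = 0.0107, limma). Those calls were kept whichever single library was left out. The Col4a1 call was lost without disease replicate 1 or 2, the Dcn call without disease replicate 2 or 6 or RYGB replicate 2, 5 or 6, and the Sparc call without disease replicate 1 or 2 or RYGB replicate 1, 4 or 5 (adjusted p between 0.0556 and 0.0803, limma). The calls of Col4a2 and Fn1 were each lost without any single one of 11 libraries of the 3 groups, with adjusted p up to 0.112 (limma). With the compared groups fitted alone the calls of Dcn (adjusted p = 0.0546), Sparc (0.0529) and Fn1 (0.0603) were lost, and with a replicate block those of Dcn (0.064) and Fn1 (0.0639, limma). Between RYGB and healthy control Col3a1, Dcn, Fbn1, Ltbp1 and Vwf were called lower, with a list median of −0.55, against −0.013 and 1.98% called lower over all genes. For that comparison edgeR called 11 of the list and DESeq2 15, against 5 in limma. Over all genes edgeR called 846 there and DESeq2 1602, against 621 in limma. Between disease and healthy control Vwf alone was called lower, against 1.03% of all genes. The Vwf call in disease was lost without any single one of 9 libraries (adjusted p up to 0.0915) and with the compared groups alone (adjusted p = 0.0687, limma). The Col3a1 call against healthy controls was lost without any of 8 libraries (adjusted p up to 0.0914) and the Fbn1 call without healthy control replicate 1 or 2 or RYGB replicate 6 (adjusted p up to 0.0696, limma).

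Membrane proteins that Adam10 and Adam17 are known to shed gave 0 calls between RYGB and disease among 21 tested in limma, where 5 had an unadjusted p below 0.05, and edgeR called 0 and DESeq2 called 1, Icam1. Over all genes tested in limma 3.95% were called there, and 20.7% had an unadjusted p below 0.05. Among the same 13988 genes edgeR called 629 and DESeq2 1098. In that comparison App, the amyloid precursor protein, had a log2 fold change of −0.10 ± 0.11 and Kl, the anti-ageing protein klotho, of 0.14 ± 0.15. Areg, an epidermal growth factor receptor ligand, averaged 14.01 ± 5.73 normalised reads in disease and 79.6 ± 47.2 in healthy controls (log2 −2.28 ± 0.42, adjusted p = 0.00495, limma). Areg was also called lower in RYGB, at 24.6 ± 14.5, than in healthy controls (log2 −1.61 ± 0.42, adjusted p = 0.0357, limma). That call was lost with a replicate block (adjusted p = 0.0583) and without any single one of healthy control replicates 2, 3, 5 and 6 or RYGB replicates 1, 2, 5 and 6 (adjusted p up to 0.0826, limma).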

How the data were processed

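Polyadenylated RNA of flash-frozen cortex was sequenced from stranded libraries, per the labels' protocols. What was deposited is a signal, namely read counts per gene that the authors divided by a size factor for each library. The submitters' processing notes name the build Rnor 5.0 and, among tools, HTSeq 0.6.1p1, FastQC 0.11.2, MultiQC 0.9 and DESeq2 (aligner: not given in the sources used here). Of its rows, 3 name no gene (27.6 to 43.2% of counted reads without a feature, 13.5 to 18.1% not unique, 0.0695 to 0.114% ambiguous), and these were left out. Reads were recovered as whole numbers for 100% of values checked, within 0.01 reads, and edgeR on them called 629 genes between RYGB and disease, 846 between RYGB and healthy control and 224 between disease and healthy control. Every pair of libraries of a group differed by more than sampling noise (chi-square over its degrees of freedom at least 22.5).

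log2(value + 1), which understates changes of low genes, was fitted with limma 3.58.1 and its trend option in R 4.3.3, using the 3 groups and all 18 libraries together (15 residual degrees of freedom), two-sided, after a filter of at least 10 in at least 6 libraries. The code was tested on simulated data. Alternatives were edgeR 4.0.16 and DESeq2 1.42.0 on recovered reads, quantile normalization, pseudocounts of 0.5 and 10, no filter or a minimum of 50, the compared groups alone, a replicate block and leaving out each library. Same-numbered disease and healthy control libraries deviated together (correlation 0.131 to 0.325 in every pair). Differently numbered libraries were not examined in this way, so these values cannot show whether the numbers pair those groups. No label states such a pairing and the main fit did not use it. The replicate block changed no member's call between disease and healthy control. Members given with values were those called in any comparison, the 3 with the highest mean in each family, every Timp, and enzymes of known kidney role, and list genes were named where called or, in a list without a call, for the highest means, apart from a list gene that is not reported here. The members and lists were chosen with earlier results of these data known. Promoters came from RefSeq (GRCr8), whose build differs from that of the counts.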

Additional observations from a re-analysis of the deposited data

Results flagged for a closer look

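In 7 of the 62 member and group combinations examined, the highest or lowest of the 6 libraries stood farther from its nearest neighbour than 0.625 of the group's whole range, and chance alone gives about 1 in 20 such groups. RYGB replicate 2 was flagged in this way as the highest RYGB library for 3 members. These were Adamts8 at 296 normalised reads (the others 126 to 183), Mmp9 at 143 (32.3 to 63.4) and Mmp15 at 1010.3 (452 to 643). Healthy control replicate 4 was the lowest of its group for Mmp2 at 177 (the others 430.0 to 574). Healthy control replicate 5 was the lowest of its group for Adam22 at 110.1 (163 to 187). Disease replicate 6 was the highest for Adam9 at 3089 (1636 to 2016), and disease replicate 5 was the highest for Mmp9 at 229.7 (66.2 to 121).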

How the results depend on the processing

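For the 63 pairs of a named member and a comparison, 1719 alternative values were computed. Of these 1635 kept direction and side of the threshold, 41 lost a call, 11 gained one and 32 changed sign. Adamts1, Adamts8, Mmp2 and Mmp12 between RYGB and disease, Adamts8 between disease and healthy control, and Mmp2 and Mmp9 between RYGB and healthy control kept their calls under every alternative run, except that Mmp12 could not be tested at a minimum of 50. Leaving out single libraries gave 4 to 8 members called between RYGB and disease (main 6), 2 to 6 between RYGB and healthy control (main 3) and 1 to 2 between disease and healthy control (main 2). DESeq2 called 9 members between RYGB and healthy control. With the replicate number as a block 6, 2 and 2 members were called in the same order of comparisons. Same-numbered libraries correlated from -0.557 to 0.309 between RYGB and disease and from -0.31 to 0.0141 between RYGB and healthy control. No label says what a shared number means. Over all genes the main calls were 552, 621 and 225, against 1098, 1602 and 410 in DESeq2, and fitting the compared groups alone gave 1421 between RYGB and healthy control. A minimum of 50 gave 143 between disease and healthy control. The cause of these changes was not tested. Each sign change was in an uncalled log2 fold change near 0. For disease against healthy control these were Adam22 (0.016 with quantile normalization, 0.078 in edgeR, 0.094 in DESeq2, -0.23 to 0.14 without single libraries), Mmp14 (0.0031 with quantile normalization, -0.097 to 0.064 without single libraries) and Adamts10 (-0.26 to 0.0090 without single libraries). For RYGB against disease they were Mmp15 (-0.011 with quantile normalization, -0.13 to 0.18 without single libraries), Timp4 (-0.12 to 0.015) and Adamts10 (-0.023 to 0.25). For RYGB against healthy control they were Adamts10 (0.011 in edgeR, 0.0052 in DESeq2, -0.078 to 0.086 without single libraries) and Timp3 (-0.072 with quantile normalization, -0.13 to 0.18 without single libraries).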
